A study of Mus musculus with 24 samples.

Results

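Kidneys examined 2 weeks after reversal of a 7-day ureteric obstruction (R2W, 4 libraries) were compared with kidneys still obstructed at day 7 (UUO7, 4 libraries). The 8 libraries are those whose value columns carry these 2 names, of 24 libraries in the series, and all 14785 genes of the deposited table entered the comparison. All animals were male C57/BL6 mice, 8 weeks old in the sample labels and 8 to 9 weeks old at the start in the design text. Unilateral ureteric obstruction was made by tying off a ureter, so both groups had had surgery and 7 days of obstruction. In R2W the ureter was then implanted again and the animals lived 2 weeks more, whereas the UUO7 animals had no second operation. The design gives 10 animals per group, of which 4 were chosen for sequencing of polyadenylated RNA, and does not give how they were chosen. Sham kidneys and kidneys 1 week after reversal (R1W), 4 libraries each, are used below as points of reference. The R2W animals were also older at collection by the time since reversal, so age, the second operation and the relief of obstruction cannot be told apart.

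Blocking the ureter raises pressure in the tubules, which lose transport and metabolic functions while the space between them fills with leukocytes, myofibroblasts and matrix. The reversible form of the model follows what happens once urine flow is restored. Proximal tubule cells carry out bulk reabsorption and burn fatty acids, the thick ascending limb and distal segments adjust salt, calcium and magnesium, and the collecting duct controls water, potassium and acid. Injured tubule cells switch on a small set of surface and secreted proteins, among them KIM-1, NGAL and osteopontin, that are used as injury markers.

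Values are FPKM, fragment counts scaled to transcript length and to the library's depth. Fold changes are differences of group means of log2(FPKM + 1), tested with limma, and understate the change of genes with low values. A gene is called where its adjusted p-value, by Benjamini and Hochberg over all 14785 genes, was under 0.05. Mitochondrially encoded transcripts made up 5.42 to 6.37% of summed FPKM in UUO7 and 8.17 to 11.1% in R2W, and the 10 most abundant genes 9.34 to 11.7% and 12.8 to 17.8%. Each result was also computed after median-ratio rescaling, in which each library is divided by the median, over genes, of its ratio to that gene's geometric mean across libraries. The steps between low values correspond to about 24994000 to 35355000 fragments per library in the 8 libraries. At those depths 69.3 to 75.0% of the values tried were within 0.2 of a whole fragment. Depth and fragment length were chosen for each library to bring the same values nearest whole fragments. The share is therefore not a separate check of the depths. Where 2 sets of 4 values follow each other, the first is UUO7 and the second R2W. Values are given for each library in replicate order, 1 to 4, because the R2W libraries differed from one another: on the mean log levels of the proximal tubule, matrix and macrophage lists given below, replicates 2 and 4 lay closer to sham than replicates 1 and 3. Pearson's r across genes between pairs of libraries, on the log2(FPKM + 1) scale, was 0.966 to 0.984 within R2W and 0.982 to 0.987 within UUO7. Between R2W and UUO7 libraries it was 0.946 to 0.973, which overlaps the range within R2W.

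Between day 7 of obstruction and 2 weeks of reversal, limma called 4780 genes (32.3% of those tested), 1595 higher in R2W (10.8%) and 3185 lower (21.5%). After rescaling, 4400 were called (29.8%), 2336 higher (15.8%) and 2064 lower (14.0%), so which direction prevails depends on the scaling. In both versions 3656 genes were called with the same direction, 1592 higher and 2064 lower, and 0 were called in opposite directions. Most differences were small, and 4385 of the 4780 calls had a log2 fold change within 1 of zero. Beyond that size the rises outnumbered the falls, 241 (1.63%) against 154 (1.04%), and 298 (2.02%) against 117 (0.791%) after rescaling. Apart from any test, the 2 groups did not overlap for 4635 genes (31.3%), 1618 of them higher (10.9%) and 3017 lower (20.4%) in R2W. Leaving out R2W replicate 4 reduced the genes called lower from 3185 to 2120. Leaving out R2W replicate 2 or UUO7 replicate 3 reduced them to 2207 and 2260. The median log2 fold change over all genes was -0.06 on the deposited values and 0.02 after rescaling.

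**Figure D1:**
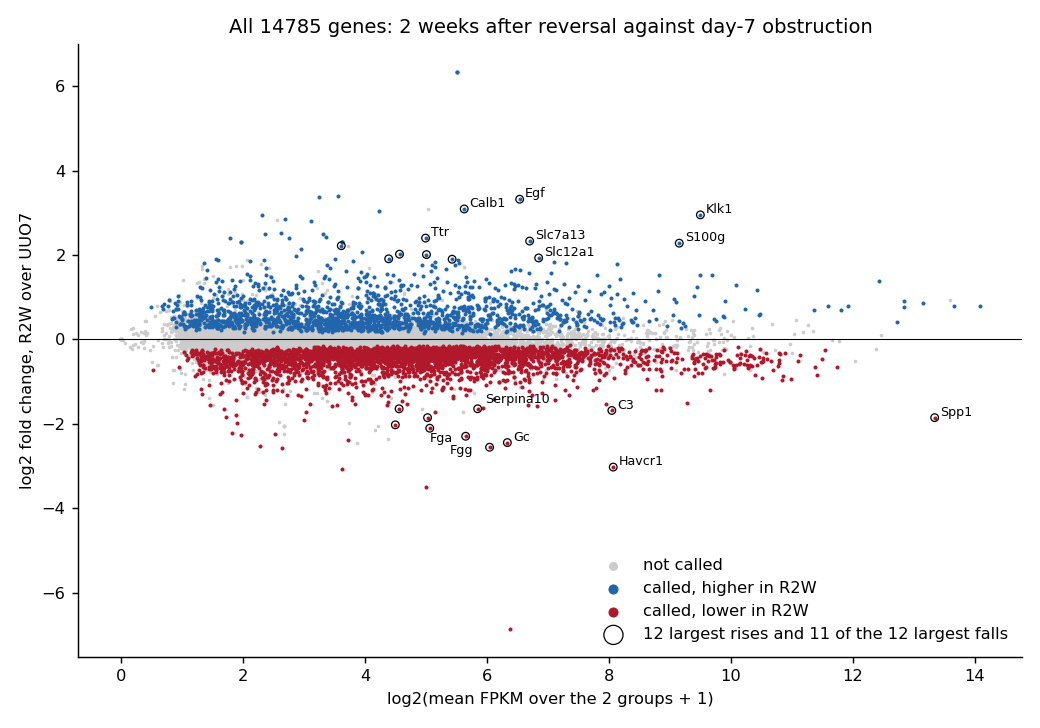
Each point is a gene, placed by the log2 of its mean FPKM over the 8 libraries plus 1 (horizontal) and its log2 fold change in R2W over UUO7 (vertical), with called genes in blue (higher in R2W) and red (lower). Rings mark the 12 largest rises and 11 of the 12 largest falls chosen by the naming rule, from Egf at 3.32 to Havcr1 at -3.02, and Spp1 lies far to the right as the most abundant of them.

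The farthest points in that plot are ribosomal protein copies and predicted genes, looked up after their values were seen. Rps12l1, a ribosomal protein gene copy, had a mean of 164 FPKM in UUO7 and 0.193 in R2W, and the predicted genes Gm10359 and Gm12671 had the same mean as each other, 89.0 FPKM, in R2W and were listed at 0 in UUO7. Such copies share sequence with other genes, and how fragments were divided among them is uncertain.

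The largest rises and falls are given for genes averaging 10 FPKM or more over the 8 libraries, called in the same direction on both scalings and without overlap between the groups, leaving out mitochondrial, ribosomal protein, immunoglobulin and model-named genes. The largest rises so defined, Egf and Calb1, are genes of the thick ascending limb and the distal tubule. Egf, the precursor of epidermal growth factor and one of the most specific products of these nephron segments, stood at 13.5, 16.1, 14.1 and 17.3 FPKM in UUO7 and 119, 218, 119 and 217 FPKM in R2W. No R2W library came near the obstructed level, and replicates 2 and 4 were the higher ones. The group means differed 11-fold, with a log2 fold change of 3.32 (SE 0.40, limma adjusted p = 2.01e-05). Sham kidneys had 431 ± 12.3 FPKM (SD, n = 4), so R2W was still lower than sham (log2 fold change -1.42, limma adjusted p = 0.00348). Egf lies on mouse chromosome 3 on the minus strand (mm10 chromosome 3, 129677565 to 129755316).

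Of 12 thick ascending limb genes, 10 rose and 2 were not called, where 10.8% of all genes were called higher and 21.5% lower (shares to read beside each list count that follows), with a median log2 fold change of 1.09 against -0.06 for all genes. Slc12a1, the sodium, potassium and chloride cotransporter that is the target of loop diuretics, had 37.8, 51.2, 46.8 and 51.3 FPKM in UUO7 and 153, 199, 172 and 200.2 FPKM in R2W. Its groups were well apart and the R2W libraries were close to each other (log2 fold change 1.93, SE 0.29, limma adjusted p = 0.000162). Umod, uromodulin, the most abundant protein of normal urine, had 1133 ± 144 FPKM in UUO7 and 1713 ± 150.1 in R2W (SD, n = 4 each), a modest rise from an already high level (log2 fold change 0.6, limma adjusted p = 0.00869). Tmem207, at 0.86, 0.81, 0.84 and 0.9 FPKM in UUO7, rose to 5.94, 6.65, 4.99 and 5.56 FPKM. Ppp1r1a, an inhibitor of protein phosphatase 1, rose by 1.57 on the log2 scale (limma adjusted p = 0.00105). The claudins of the paracellular calcium and magnesium pathway were the exceptions. Cldn16 had 18.6, 17.4, 18.9 and 18.2 FPKM in UUO7 and 14.4, 21.9, 21.3 and 21.4 in R2W, which overlap (limma adjusted p = 0.558), and Cldn19 had a log2 fold change of 0.39 (limma adjusted p = 0.0634, and called after rescaling). Both claudins were higher in R2W than in sham, by 1.05 and 1.05 on the log2 scale (limma adjusted p = 5.84e-08 and 8.31e-06).

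In the distal convoluted and connecting tubule list, 8 of 12 genes rose and 4 were not called (median log2 fold change 0.93). Calb1 encodes calbindin-D28k, the calcium buffer of these segments, and had 7.7, 9.3, 8.98 and 11 FPKM in UUO7 and 74.7, 93.2, 66.3 and 116 FPKM in R2W. Every R2W library was several times above every UUO7 library, and the level was on both sides of the sham mean of 88.3 FPKM (R2W over UUO7 log2 fold change 3.09, SE 0.29, limma adjusted p = 1.18e-06). Klk1, tissue kallikrein, a connecting tubule serine protease, had 131, 153, 168 and 179 FPKM in UUO7 against 811, 1811, 954 and 1568 FPKM in R2W. The R2W values were again highest in replicates 2 and 4 (log2 fold change 2.95, SE 0.32, limma adjusted p = 5.11e-06). Klk1 is one of a cluster of near-identical kallikrein genes on chromosome 7, and which copy a fragment came from is uncertain. S100g, calbindin-D9k, a smaller calcium-binding protein that is not in the list, went from 168, 179, 194 and 228 FPKM to 834, 1167, 794 and 978 FPKM (log2 fold change 2.28, SE 0.16, limma adjusted p = 4.3e-08). All R2W libraries were under the sham mean of 1239.7 FPKM, and the highest was above the lowest sham library. Kl, which encodes Klotho, the co-receptor of the phosphate-regulating hormone FGF23, had 24.6, 30.0, 22.5 and 24.3 FPKM in UUO7 and 57.4, 90.1, 57.6 and 87.7 FPKM in R2W (log2 fold change 1.47, limma adjusted p = 3.08e-05). The thiazide-sensitive cotransporter Slc12a3 rose by 1.28 and the sodium-calcium exchanger Slc8a1 by 1.38 on the log2 scale. Pvalb, parvalbumin, a marker of the early distal convoluted tubule, was listed at 0 in UUO7 replicates 2, 3 and 4 and at 0.04 in replicate 1, and had 4.93, 16.6, 4.2 and 5.65 FPKM in R2W (limma adjusted p = 2.29e-06). Those R2W values remained under the sham mean of 35.1 FPKM (limma adjusted p = 1.65e-06 against sham). The apical calcium channel Trpv5 was not called (log2 fold change -0.47, limma adjusted p = 0.156).

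Genes of both cell types of the collecting duct rose, with 11 of 12 genes called for the intercalated cells, which secrete acid or base, and 6 of 12 for the principal cells, which handle water, sodium and potassium. Among 12 intercalated cell genes, 11 rose and Car2 was not called (median log2 fold change 0.95). Slc4a1, the anion exchanger AE1 of the acid-secreting type, had 0.39, 0.6, 0.56 and 0.57 FPKM in UUO7 and 5.8, 8.8, 6.62 and 9.65 FPKM in R2W. It was barely above zero in obstruction and clearly present in each R2W library (log2 fold change 2.49, SE 0.36, limma adjusted p = 0.00012). AE1 is also known as a red cell protein. Slc26a4, which encodes pendrin of the base-secreting type, had 8.14, 9.29, 8.85 and 9.02 FPKM in UUO7 and 17.2, 29.9, 13.5 and 27.1 in R2W (log2 fold change 1.16, limma adjusted p = 0.000582). Rhbg, an ammonia transporter, and Atp6v1c2, a subunit of the proton pump, rose by 1.5 and 1.09 on the log2 scale. Car2, carbonic anhydrase 2, had 129, 146, 133 and 135 FPKM and 133, 152, 128 and 162 FPKM, a range shared by the groups. Of 12 principal cell genes 6 rose and 6 were not called. The basolateral water channel Aqp3 had 13.9, 14.7, 16.5 and 16.7 FPKM in UUO7 and 46.3, 63.4, 43.9 and 60.9 FPKM in R2W (log2 fold change 1.72, SE 0.27, limma adjusted p = 0.000226). The vasopressin-regulated water channel Aqp2 had 77.2, 64, 113 and 87 FPKM and 348, 169.8, 178 and 181 FPKM, with no overlap but 1 R2W library, replicate 1, far above the other three (log2 fold change 1.31, limma adjusted p = 0.0165). Without that library its limma adjusted p was 0.053. Of the subunits of the epithelial sodium channel, Scnn1a rose by 1.27 (limma adjusted p = 0.000473), whereas Scnn1b (0.38, limma adjusted p = 0.0567) and Scnn1g (0.18, limma adjusted p = 0.129) were not called.

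**Figure D2:**
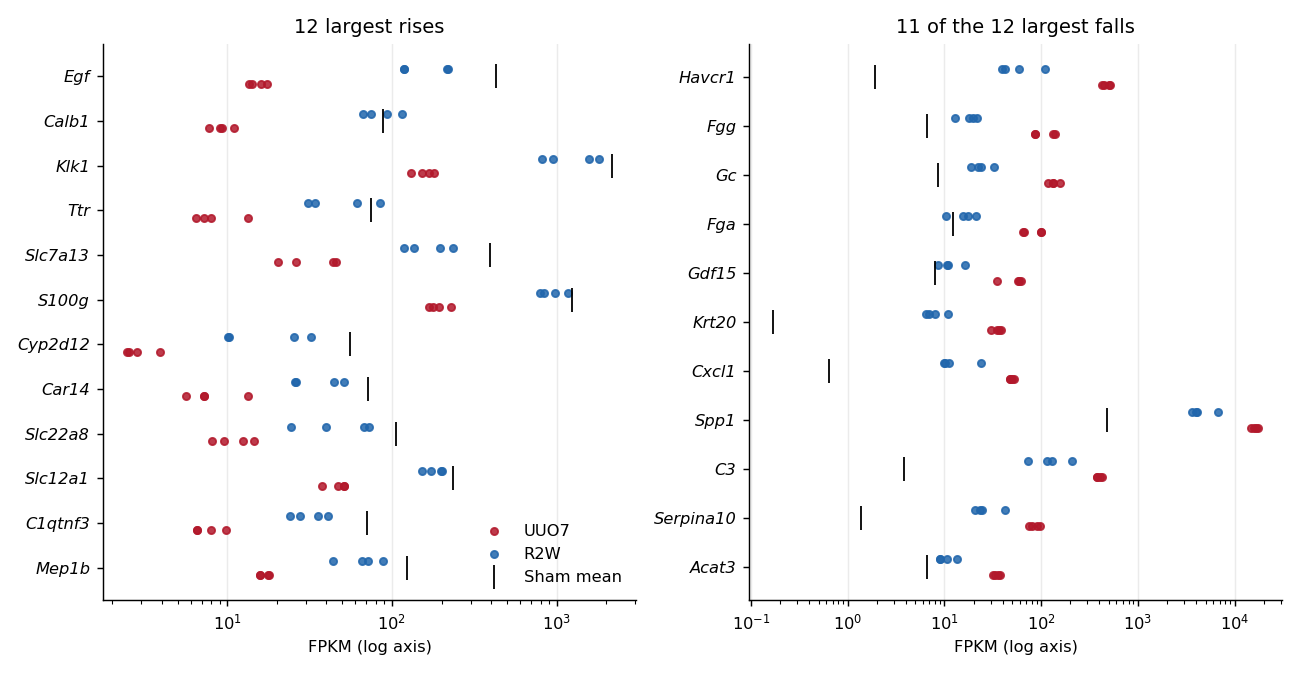
FPKM of the 12 largest rises (left) and 11 of the 12 largest falls (right) on a log axis, with 1 point per library for UUO7 (red) and R2W (blue) and a bar at the mean of the 4 sham libraries. The 2 colours do not overlap for any of the 23 genes, which the naming rule required. The R2W points of Egf and Havcr1 lie between UUO7 and the sham mean, and those of Calb1 on both sides of that mean.

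Proximal tubule genes rose too, and remained under sham. Of 28 genes, 23 rose, Slc13a1 fell and 4 were not called (median log2 fold change 0.95). Slc7a13, an aspartate and glutamate transporter of the last proximal segment, had 46, 43.6, 20.2 and 26.3 FPKM in UUO7 and 119, 236, 137 and 195 FPKM in R2W. The lowest R2W library exceeded the highest UUO7 library more than 2-fold (log2 fold change 2.33, SE 0.27, limma adjusted p = 1.36e-05). Slc22a8, the organic anion transporter OAT3, had 12.4, 14.5, 9.58 and 8.06 FPKM and 39.6, 73, 24.5 and 67.4 FPKM (log2 fold change 2.01, SE 0.27, limma adjusted p = 6.43e-05). Its companion Slc22a6, OAT1, rose by 1.28. Slc34a1, the main phosphate cotransporter, had 715, 705, 608 and 575 FPKM in UUO7 and 940.3, 1795, 887 and 1438 FPKM in R2W, with replicates 2 and 4 the higher ones, against a sham mean of 2764 FPKM. Lrp2, megalin, the receptor that retrieves filtered proteins, had 24, 24.1, 17.4 and 19.3 FPKM and 32.9, 56, 32.7 and 48.5 FPKM (log2 fold change 0.95, limma adjusted p = 0.00242). Acsm3 and Aadat, enzymes of acyl and tryptophan metabolism, rose by 1.84 and 1.63. Mep1b, Car14, Cyp2d12, Ttr and C1qtnf3 are largest rises that belong to none of the lists. Mep1b, the brush border protease meprin beta, rose from 16.8 ± 1.08 to 67.2 ± 18.1 FPKM (SD, n = 4 each). Car14, a membrane carbonic anhydrase, had 7.24, 13.3, 7.17 and 5.58 FPKM and 25.6, 51.3, 26.2 and 44.7 FPKM, again highest in R2W replicates 2 and 4. Cyp2d12, a cytochrome P450 with close copies in the genome, rose by 2.22, with the division among copies uncertain. Napsa, the aspartic protease napsin A, and Ggt1, gamma-glutamyltransferase, both abundant, were not called (0.45 and 0.44, limma adjusted p = 0.0694 and 0.0543). Slc13a1, the sulphate cotransporter, ran against the list. It had 245, 251, 212 and 209 FPKM in UUO7, where all libraries were above the sham mean of 95.8 FPKM, and 70.8, 101, 89.5 and 108 FPKM in R2W (log2 fold change -1.31, SE 0.18, limma adjusted p = 6.67e-05). Ttr, transthyretin, a carrier of thyroid hormone and retinol-binding protein, had 7.24, 13.3, 7.91 and 6.45 FPKM and 30.9, 84.7, 34.2 and 61.6 FPKM (log2 fold change 2.4, limma adjusted p = 0.000624). C1qtnf3, a secreted relative of adiponectin, had 6.57, 9.81, 6.57 and 8.01 FPKM and 24, 41.2, 27.8 and 35.3 FPKM (log2 fold change 1.91, limma adjusted p = 5.47e-05).

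The list score, the mean log2(FPKM + 1) over the members, shows the spread among the animals. For the proximal tubule list it was 6.66 to 7.08 in UUO7, 7.47, 8.28, 7.48 and 8.07 in R2W and 8.77 to 9.04 in sham. No R2W library reached the lowest sham library or fell to the highest UUO7 library. For the thick ascending limb list the R2W scores of 6.06, 6.33, 6.10 and 6.31 lay within or next to the sham range of 6.12 to 6.44, and the UUO7 scores were 4.92 to 5.08. In bulk kidney RNA, fewer cells of a type and less RNA per cell cannot be told apart.

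Energy metabolism genes were called mostly upwards. Of 18 genes of fatty acid oxidation, the main fuel pathway of the proximal tubule, 9 rose, Pdk4 fell and 8 were not called. Ehhadh, the peroxisomal bifunctional enzyme, had 43.9, 61.5, 26.4 and 39.1 FPKM in UUO7 and 73.5, 159.9, 108 and 223 FPKM in R2W (log2 fold change 1.64, SE 0.36, limma adjusted p = 0.0025). The R2W libraries spread 3-fold among themselves, and the sham mean was 339.7 FPKM. Acadm, medium-chain acyl-CoA dehydrogenase, rose by 1.09 on the log2 scale (limma adjusted p = 0.0016). Ppargc1a, a coactivator of mitochondrial genes, rose by 0.63 (limma adjusted p = 0.0017). The mitochondrial dehydrogenases Acadvl (0.09) and Acadl (0.12) were not called. Pdk4, a kinase that shuts off pyruvate oxidation, had 17.2, 22.2, 18.2 and 19.6 FPKM in UUO7 and 4.06, 9.67, 6.85 and 18.5 FPKM in R2W, where replicate 4 overlapped the obstructed range (log2 fold change -1.08, limma adjusted p = 0.0164, and 0.062 without R2W replicate 1). Of 16 nuclear genes of the respiratory chain, 10 rose and 6 were not called, with a median log2 fold change of 0.38. Atp5b, the catalytic subunit of ATP synthase, had 1163, 1160.3, 1113 and 1072 FPKM and 1544, 1919, 1431 and 1849 FPKM, a difference that is small and free of overlap (log2 fold change 0.57, SE 0.11, limma adjusted p = 0.00104). Cox4i1, a subunit of cytochrome oxidase, overlapped between the groups (0.03, limma adjusted p = 0.873).

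Of 15 nephron transcription factors, 3 rose and 12 were not called, where 10.8% of all genes were called higher. After rescaling 6 rose, as without the day-2 obstruction libraries, and 5 rose without R2W replicate 1. Irx1, a homeobox factor of the middle nephron, had 13.7, 12, 13.3 and 20.9 FPKM and 28, 40.7, 31.5 and 39.9 FPKM (log2 fold change 1.19, limma adjusted p = 0.00332), while the orphan nuclear receptors Esrrb and Esrra rose by 0.82 and 0.37, Esrra losing its call without R2W replicate 2 or 4 or UUO7 replicate 2 or 4. Hnf4a, the proximal tubule regulator, had 70.4, 69.3, 54.5 and 57.5 FPKM in UUO7 and 69.6, 109, 68.5 and 97 FPKM in R2W, with overlap (log2 fold change 0.42, limma adjusted p = 0.0535).

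Injury markers of the tubule were among the largest falls defined in the same way, led by Havcr1. Havcr1 encodes KIM-1, a phosphatidylserine receptor that injured proximal tubule cells place on their surface. It had 508, 443, 510.1 and 429 FPKM in UUO7 and 38.9, 42.3, 109 and 59 FPKM in R2W, a fall that left the highest R2W library, replicate 3, about 4-fold under the lowest obstructed one. The log2 fold change was -3.02 (SE 0.33, limma adjusted p = 6.43e-06), and the mean in UUO7 was 7.59-fold that in R2W. Sham libraries had 1.91 ± 0.373 FPKM (SD, n = 4), so R2W was still 4.33 above sham on the log2 scale (limma adjusted p = 1.06e-09). Havcr1 lies on mm10 chromosome 11, 46735080 to 46779578. Spp1, osteopontin, a secreted phosphoprotein, had 15894, 16448, 17535 and 14637 FPKM in UUO7 and 4017, 3654, 6758 and 4036 FPKM in R2W. It was the most abundant of the 11 largest falls reported at both times, and its sham mean was 480.2 FPKM (R2W over UUO7 log2 fold change -1.85, SE 0.22, limma adjusted p = 2.01e-05). Krt20, a keratin absent from most healthy tubule cells, had 35.1, 36.6, 38.2 and 30.4 FPKM in UUO7 and 6.89, 7.91, 10.8 and 6.5 FPKM in R2W (log2 fold change -2.02, limma adjusted p = 4.03e-06). Lcn2, which encodes NGAL, an iron-scavenging lipocalin, had 888, 748, 807 and 1107 FPKM in UUO7 and 477, 158, 576 and 215 FPKM in R2W. All R2W libraries were under UUO7, and replicates 2 and 4 were the lowest (log2 fold change -1.49, SE 0.40, limma adjusted p = 0.00845).

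Of the 18 genes in the injured tubule list, 12 fell and 6 were not called, with a median log2 fold change of -0.9. Vcam1, an adhesion molecule, fell by 1.32 and Sox9, a progenitor-type transcription factor, fell by 1.19 on the log2 scale (limma adjusted p = 0.000487 and 0.0223). Among the keratins, Krt8 fell by 0.58, Krt18 and Krt19 were not called (-0.72 and -0.71), and Krt7 had 127, 122, 107 and 140.3 FPKM in UUO7 and 139, 112, 157 and 137 FPKM in R2W, which overlap (log2 fold change 0.13, limma adjusted p = 0.526). Krt8 was not called after rescaling (limma adjusted p = 0.0582) or without R2W replicate 2 or 4 or any UUO7 library, and Sox9 not without R2W replicate 2 or 4 or UUO7 replicate 1 or 3. Cldn4, a tight junction protein, had no overlap between groups but was not called (-0.93, limma adjusted p = 0.0507).

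Fgg, Fga, Gc and Serpina10, genes of secreted plasma proteins best known from the liver, were also among the largest falls; no list of such genes was tested. Fgg, the gamma chain of fibrinogen, had 133, 139, 87.3 and 86.4 FPKM in UUO7 and 12.7, 18, 19.8 and 21.6 FPKM in R2W (log2 fold change -2.55, SE 0.24, limma adjusted p = 1.12e-06). Fga, the alpha chain, had 100.1, 98.7, 64.1 and 66 FPKM and 10.4, 15.7, 21 and 17.3 FPKM (log2 fold change -2.29, SE 0.27, limma adjusted p = 2.01e-05). In both chains UUO7 replicates 1 and 2 were above 3 and 4, and every R2W library was under every UUO7 library. Gc, the vitamin D-binding protein, had 118, 133, 156 and 132 FPKM and 23.8, 18.7, 32.5 and 22.3 FPKM (log2 fold change -2.44, SE 0.20, limma adjusted p = 3.82e-07). Serpina10, an inhibitor of coagulation factors, had 90.5, 79.9, 96.1 and 75 FPKM and 23.2, 20.9, 42.1 and 24.3 FPKM, with R2W replicate 3 the highest (log2 fold change -1.64, limma adjusted p = 0.000323). The R2W libraries of Fga lay on both sides of its sham mean of 12.1 FPKM (log2 fold change over sham 0.35, limma adjusted p = 0.257). Fgg and Gc were still above sham by 1.3 and 1.4 (limma adjusted p = 6.72e-05 and 5.32e-06). Gdf15, a stress-induced cytokine, had 58.5, 57.3, 62 and 34.6 FPKM and 10.9, 8.65, 16.2 and 10.7 FPKM (log2 fold change -2.1, limma adjusted p = 0.00142); its sham mean was 7.97 FPKM. Acat3, a cytosolic acetyl-CoA acetyltransferase with a close copy, fell by 1.64 (limma adjusted p = 2.1e-05).

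Because the fibrinogen chains and Gc are classical targets of hepatocyte factors, the 250 bases before their start sites are shown with those of Egf and Klk1, 2 of the 3 largest rises, from RefSeq on build GRCm38.p6 and read 5′ to 3′ on the gene's strand. Capitals mark matches to GTTAAT (the HNF1 half-site) or TTCNNNGAA (a STAT site), each searched on both strands, so ATTAAC marks the half-site on the other strand. Of the 2 windows RefSeq gives for Egf, the one nearest the annotated gene start is shown. AP-1 (TGANTCA) and TATAAA were also searched and had no match in these 5 windows. Fgg and Fga are neighbours on chromosome 3, Fgg at chr3:83007474-83007723 and Fga at chr3:83025903-83026152, both on the plus strand. Gc is at chr5:89457899-89458148 on the minus strand, Egf at chr3:129755323-129755572 on the minus strand and Klk1 at chr7:44225110-44225359 on the plus strand.
Fgg: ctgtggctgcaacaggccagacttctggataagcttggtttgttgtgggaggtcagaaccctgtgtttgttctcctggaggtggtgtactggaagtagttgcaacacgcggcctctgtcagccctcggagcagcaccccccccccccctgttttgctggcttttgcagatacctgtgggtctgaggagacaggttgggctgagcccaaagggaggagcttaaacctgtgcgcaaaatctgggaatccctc
Fga: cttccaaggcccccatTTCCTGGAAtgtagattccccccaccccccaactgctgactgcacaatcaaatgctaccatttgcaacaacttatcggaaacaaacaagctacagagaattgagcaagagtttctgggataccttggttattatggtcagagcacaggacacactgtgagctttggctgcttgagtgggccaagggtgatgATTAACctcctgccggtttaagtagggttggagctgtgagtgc
Gc: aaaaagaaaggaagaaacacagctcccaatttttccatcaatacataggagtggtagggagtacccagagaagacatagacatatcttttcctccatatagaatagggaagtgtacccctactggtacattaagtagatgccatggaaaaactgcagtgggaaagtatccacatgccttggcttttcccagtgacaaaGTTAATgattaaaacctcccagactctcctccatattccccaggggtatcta
Egf: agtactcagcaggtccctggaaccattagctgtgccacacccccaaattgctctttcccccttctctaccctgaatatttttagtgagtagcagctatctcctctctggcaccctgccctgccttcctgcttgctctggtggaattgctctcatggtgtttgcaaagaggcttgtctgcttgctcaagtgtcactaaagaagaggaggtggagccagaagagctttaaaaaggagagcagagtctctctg
Klk1: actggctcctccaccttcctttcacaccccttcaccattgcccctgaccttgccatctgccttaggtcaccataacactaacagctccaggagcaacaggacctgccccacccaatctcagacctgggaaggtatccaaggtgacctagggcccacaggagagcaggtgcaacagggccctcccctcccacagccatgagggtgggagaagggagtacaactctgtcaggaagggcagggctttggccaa
The half-site stood at -52 to -47 in Gc and at -43 to -38 in Fga, counted back from the RefSeq start site. The STAT match of Fga stood at -234 to -226. The RefSeq start of Fga is 77 bases inside the gene as annotated with the deposited values, so its half-site lies within that annotation. Over all 32536 promoter windows of this length, GTTAAT was found in 6.47%, TTCNNNGAA in 7.04%, TGANTCA in 6.73% and TATAAA in 12.3%. Among the largest rises with such a window, 1 of 7 had GTTAAT (Slc22a8, at -81 to -76). Among the largest falls 4 of 9 had it (Gc, Fga, Gdf15 and Spp1). A match is a run of letters and says nothing of binding.

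Some matrix genes fell, and the reversal animals differed. Of 24 extracellular matrix genes, 11 fell, Eln rose and 12 were not called (median log2 fold change -0.55), where 21.5% of all genes were called lower and 10.8% higher. Col4a1, a basement membrane collagen, had 188, 212, 195 and 217 FPKM in UUO7 and 111, 86.3, 142 and 108 FPKM in R2W, without overlap (log2 fold change -0.87, SE 0.13, limma adjusted p = 0.000135). Col1a1, the main chain of scar collagen, had 76.8, 91, 76.8 and 92.5 FPKM and 63.2, 34, 75.6 and 40.8 FPKM. Replicates 1 and 3 of R2W were next to the obstructed range and replicates 2 and 4 well under it (log2 fold change -0.71, SE 0.24, limma adjusted p = 0.0296). Col3a1 had 265, 347, 242 and 315 FPKM against 251, 116, 271 and 135 FPKM, and was not called (limma adjusted p = 0.0578). Timp1, the protease inhibitor, had 115, 101, 112 and 85.8 FPKM and 53.8, 28.1, 88.6 and 32.6 FPKM, with R2W replicate 3 inside the UUO7 range (log2 fold change -1.15, limma adjusted p = 0.0236). Timp1 was not called without R2W replicate 2 or 4 or without UUO7 replicate 1 or 3. Loxl1, a collagen and elastin cross-linking enzyme, fell by 0.89 and Mgp, matrix Gla protein, an inhibitor of calcification, by 0.85 (limma adjusted p = 0.00152 and 0.0351). Mgp kept its call only when R2W replicate 1 or 3 was the library left out. Eln, elastin, went the other way, from 12, 16.9, 16.2 and 17.1 FPKM in UUO7 to 26.1, 17.6, 26 and 20.9 FPKM (log2 fold change 0.51, SE 0.16, limma adjusted p = 0.018). The small proteoglycan Bgn, the fibroblast protein Postn and the collagen-binding Dcn were not called (-0.41, -0.25 and -0.16). Leaving out R2W replicate 1 or 3 or UUO7 replicate 1 ended the call of Eln, and leaving out R2W replicate 2 or 4 or UUO7 replicate 2 or 4 that of Col1a1. The number of matrix genes called lower fell from 11 to 2 without R2W replicate 2, to 2 without R2W replicate 4, to 5 without UUO7 replicate 2 and to 6 without UUO7 replicate 4, and was 6 when the fit used only the 8 libraries.

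Of 13 myofibroblast and pericyte genes, 3 fell and 10 were not called. The number that fell was 2 without R2W replicate 2 or 4 or UUO7 replicate 1, 2 or 4. It was 5 without R2W replicate 1. With all libraries kept, the count of 3 was the same after rescaling. Over all genes 21.5% were called lower, and 14.0% after rescaling. Thy1, a fibroblast and T cell surface protein, had 101, 93, 101 and 92.1 FPKM in UUO7 and 66.2, 20.8, 46.8 and 25.2 FPKM in R2W (log2 fold change -1.41, SE 0.33, limma adjusted p = 0.00342). Pdgfrb, the growth factor receptor of pericytes, had 34, 34.3, 34.5 and 35.2 FPKM and 22.7, 14.5, 25.4 and 17.1 FPKM (log2 fold change -0.8, limma adjusted p = 0.0022), and Mcam, a pericyte adhesion molecule, fell by 0.56. Mcam was not called without R2W replicate 2 or 4, or without UUO7 replicate 1, 2 or 4. Acta2, smooth muscle actin, and Vim, vimentin, were not called (-0.41, limma adjusted p = 0.379, and -0.19, limma adjusted p = 0.501).

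In the list of TGF-beta signals and mechanical response genes, 3 of 15 fell, Bmp7 rose and 11 were not called. The number that fell was 6 without R2W replicate 3, and 2 when R2W replicate 2 or 4 was left out. After rescaling, with all libraries kept, the counts were the same. Over all genes 21.5% were called lower and 10.8% higher, and 14.0% and 15.8% after rescaling. The ligand Tgfb1 had 30.8, 32.4, 29.9 and 33.6 FPKM in UUO7 and 24.5, 14.2, 21.1 and 14.3 FPKM in R2W (log2 fold change -0.78, SE 0.19, limma adjusted p = 0.00513). Inhba, the activin A subunit, which was not called in a fit of only the 8 libraries, had 2.33, 3.59, 2.17 and 2.38 FPKM and 2.72, 0.55, 1.33 and 0.48 FPKM, with R2W replicate 1 inside the obstructed range (log2 fold change -0.76, limma adjusted p = 0.0089). The receptors Tgfbr1 and Tgfbr2 were not called (0.13 and 0.17). The matricellular targets Ctgf and Cyr61 were not called (-0.66 and -1.27, limma adjusted p = 0.181 and 0.0844). Bmp7, an epithelial ligand that opposes TGF-beta, had 6.78, 6.67, 7.5 and 7.15 FPKM and 9.13, 10.1, 8.38 and 10.7 FPKM, a rise without overlap (log2 fold change 0.39, SE 0.11, limma adjusted p = 0.0116). Every R2W library was under the sham mean of 13.1 FPKM.

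**Figure D3:**
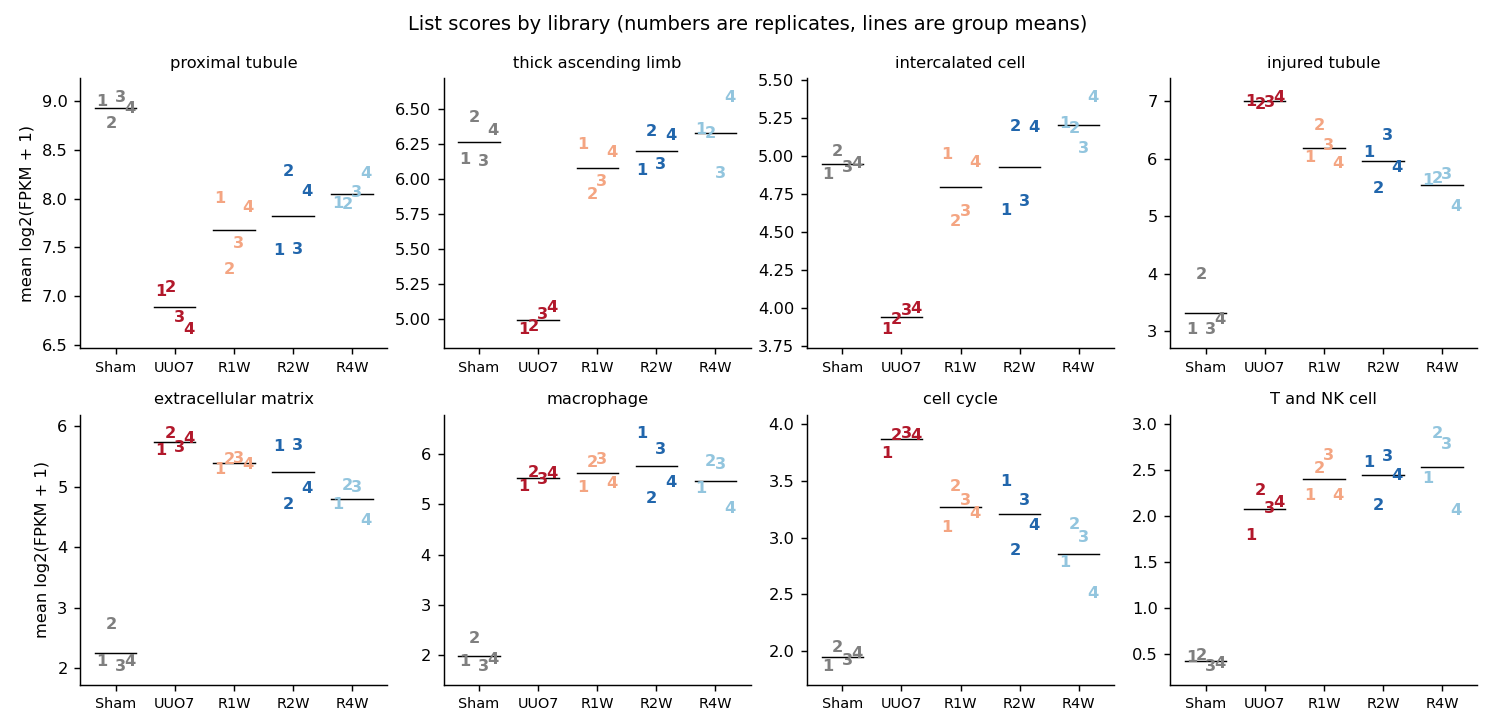
Mean log2(FPKM + 1) of 8 gene lists in each library, with the replicate number as the symbol and a line at each group mean, for sham, UUO7 and the 3 reversal groups. R2W replicates 2 and 4 lie above 1 and 3 in the proximal tubule and intercalated cell panels and below them in the matrix panel, and all R2W matrix and macrophage scores are above every sham score. R4W is 4 weeks after reversal, and its replicate 2 carries a 2-week treatment label.

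Calls differed among the leukocyte lists, with 0 of 8 for monocytes and neutrophils, 3 of 17 for macrophages, 2 of 7 for B and plasma cells, 1 of 10 for MHC class II and 6 of 11 for T and NK cells. All of them were rises except 1 T and NK cell gene and the MHC class II gene. None of the 17 macrophage genes was called lower by limma (0 had an unadjusted p under 0.05), while Gpnmb, Mmp12 and Lyz2 rose and 14 were not called (median log2 fold change 0.12), 3 calls where 10.8% of all genes were called higher. Gpnmb, a glycoprotein of lipid-laden and repair-type macrophages, had 0.86, 0.94, 0.99 and 0.99 FPKM in UUO7 and 7.53, 1.11, 6.08 and 2.72 FPKM in R2W. The 4 UUO7 libraries were nearly equal, R2W replicate 2 was just above them and replicates 1 and 3 were at least 6-fold higher (log2 fold change 1.26, SE 0.30, limma adjusted p = 0.00397). Mmp12, macrophage elastase, had 4.35, 9.16, 8.2 and 7.6 FPKM and 29.3, 8.57, 29.3 and 13 FPKM, with R2W replicate 2 inside the obstructed range (log2 fold change 1.21, SE 0.32, limma adjusted p = 0.00764). Lyz2, lysozyme, had 305, 417, 333 and 413 FPKM and 1083, 402, 859.9 and 551 FPKM (log2 fold change 0.89, SE 0.31, limma adjusted p = 0.0349). Lyz2 was not called without R2W replicate 1 or 3, or without UUO7 replicate 1 or 3. The F4/80 gene Adgre1 had 13.4, 18.2, 13.3 and 18.2 FPKM and 49.5, 14.9, 19.9 and 14.4 FPKM, where only R2W replicate 1 stood out (limma adjusted p = 0.204). C1qa, a complement component made by tissue macrophages, had 294, 317, 330.5 and 334 FPKM and 388, 183, 349 and 212 FPKM, above UUO7 in R2W replicates 1 and 3 and below it in replicates 2 and 4 (log2 fold change -0.24, 95% interval -0.87 to 0.39). The macrophage score was 5.36 to 5.63 in UUO7, 6.41, 5.12, 6.08 and 5.43 in R2W and 1.78 to 2.33 in sham. All 17 genes were called higher in R2W than in sham, as were 56.1% of all genes. Of 8 monocyte and neutrophil genes limma called 0, with 0 higher and 0 lower at an unadjusted p under 0.05 (1 was called higher without R2W replicate 2), and those not called included Ccr2 (-0.29, 95% interval -0.74 to 0.16) and the calprotectin gene S100a8 (0.61, limma adjusted p = 0.264).

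Of 11 T and NK cell genes, 5 rose, Ccl5 fell and 5 were not called, where 10.8% of all genes were called higher and 21.5% lower. Cd8a, the co-receptor of cytotoxic T cells, had 1.01, 2.25, 1.88 and 2.4 FPKM in UUO7 and 3.47, 3.44, 4.14 and 4.43 FPKM in R2W, low values that did not overlap (log2 fold change 0.78, SE 0.14, limma adjusted p = 0.000538). Cd3g, a chain of the T cell receptor complex, had 3.11, 4.75, 3.8 and 3.87 FPKM and 8.49, 4.89, 8.41 and 7.88 FPKM, with R2W replicate 2 close to the obstructed range (log2 fold change 0.77, limma adjusted p = 0.00589). Cd3e, Cxcr6 and Cd2 also rose, by 0.43, 0.58 and 0.58. Ccl5, a chemokine of activated T and NK cells, had 40.1, 45.4, 51.9 and 36.7 FPKM and 29.1, 23.7, 31 and 25 FPKM (log2 fold change -0.65, SE 0.19, limma adjusted p = 0.0126). The tyrosine kinase Lck and the cytotoxic granule gene Nkg7 overlapped between groups (0.13 and 0.38). The number called higher was 3 without R2W replicate 1, 3 or 4, 3 without UUO7 replicate 1, 3 or 4, and 0 with a minimum mean of 10 FPKM, which most of these genes do not reach. Cd3e and Cd2 were the genes lost in each of those leave-outs, and Ccl5 had a limma adjusted p of 0.0503 without UUO7 replicate 3.

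**Figure D4:**
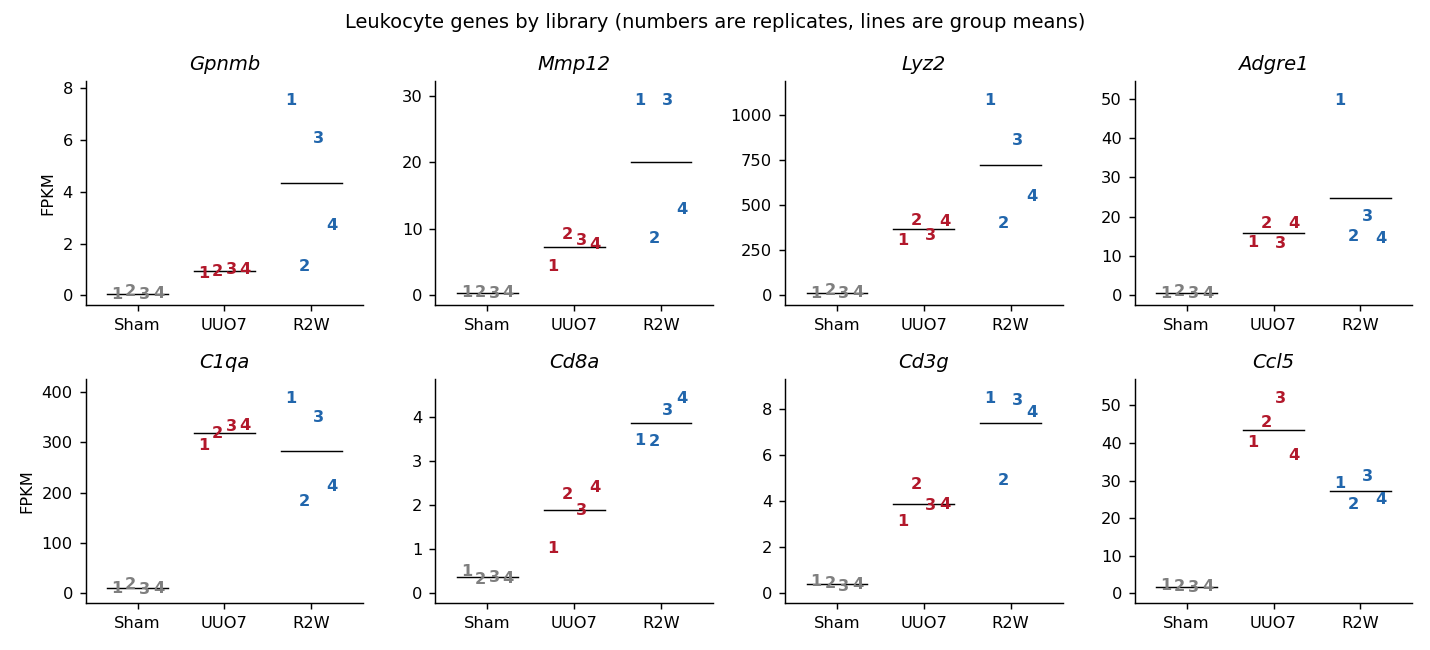
FPKM of 5 macrophage genes (Gpnmb, Mmp12, Lyz2, Adgre1, C1qa) and 3 T cell genes (Cd8a, Cd3g, Ccl5), with the replicate number as the symbol and a line at each group mean. R2W replicates 1 and 3 are the highest for the macrophage genes, all R2W values of Cd8a are above UUO7, and all R2W values of Ccl5 are below.

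Among 7 B and plasma cell genes Igkc, the kappa constant region, and Jchain, which joins secreted antibodies, rose by 0.92 and 0.96 (limma adjusted p = 0.0386 and 0.0128), and 5 were not called. Jchain was not called when 10 in place of 1 was added before the log (limma adjusted p = 0.0762). Igkc had 32.5, 70.3, 48.7 and 42.7 FPKM and 118, 78.3, 112 and 61.5 FPKM, which overlap, and it was not called without R2W replicate 1, 2 or 3 or without UUO7 replicate 1, 3 or 4. Immunoglobulin genes are near-identical to one another, so their separate values are uncertain. Of 10 MHC class II genes, H2-DMb2, a peptide-loading subunit, fell from 30.2, 26.5, 39.6 and 32.6 FPKM to 18.5, 15.4, 21.1 and 18 FPKM (log2 fold change -0.78, limma adjusted p = 0.0122). The other 9 were not called, and the invariant chain Cd74 had 1415, 1519.6, 1827 and 1728 FPKM in UUO7 and 1438, 1089, 1583 and 1234 FPKM in R2W (95% interval of the log2 fold change -0.76 to 0.18).

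Of 20 chemokines, 7 fell, 4 rose and 9 were not called, where 21.5% of all genes were called lower and 10.8% higher. The neutrophil attractants Cxcl1 and Cxcl2 were the largest falls. Cxcl1 had 49.7, 51.8, 47.2 and 48.2 FPKM in UUO7 and 11.1, 9.96, 24.1 and 10.2 FPKM in R2W, where replicate 3 was more than 2-fold above the others (log2 fold change -1.85, SE 0.44, limma adjusted p = 0.00397). Cxcl2 fell by 1.56 (limma adjusted p = 0.00135). Ccl2, the ligand that draws in CCR2-bearing monocytes, had 37.3, 34.2, 54.8 and 32.5 FPKM and 19.7, 14.9, 30.0 and 19.8 FPKM (log2 fold change -0.89, limma adjusted p = 0.0194), and the interferon-induced Cxcl10 fell by 1.06. Cxcl16, Cxcl14 and Cx3cl1 fell by 0.74, 0.7 and 0.64. In the other direction, Cxcl12, the stromal ligand of CXCR4, had 33.1, 38.3, 35.6 and 32.1 FPKM and 68.4, 71.7, 43.6 and 54.9 FPKM (log2 fold change 0.74, limma adjusted p = 0.0189). Ccl19, a ligand of the lymphoid homing receptor CCR7, had 11.9, 12.3, 13.6 and 10.1 FPKM and 19.6, 15.6, 22.8 and 20.2 FPKM without overlap (log2 fold change 0.66, limma adjusted p = 0.0242). Cxcl9, the other T cell attractant of the interferon-induced group, rose from 2.72, 3.32, 2.38 and 2.45 FPKM to 5.05, 4.1, 6.68 and 5.69 FPKM (log2 fold change 0.77, limma adjusted p = 0.00343) while Cxcl10 fell. Ccl2 was not called without R2W replicate 2 or UUO7 replicate 3, Cxcl12 not without R2W replicate 2, and Ccl19 not without R2W replicate 3 or 4 or UUO7 replicate 4. Without R2W replicate 3 the number called higher was 2.

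Of 14 complement genes, 4 fell, Cd55 rose and 9 were not called, with the same counts after rescaling. Over all genes 21.5% were called lower and 10.8% higher, and 14.0% and 15.8% after rescaling. C3, the central component, had 402, 380.2, 423 and 375 FPKM in UUO7 and 129, 72.5, 208 and 116 FPKM in R2W (log2 fold change -1.68, SE 0.33, limma adjusted p = 0.00108). The group means differed 3.01-fold, and the sham mean of 3.79 FPKM was lower still. The proteases Cfb and C2, which build the C3-cleaving enzymes, fell by 0.85 and 0.6, and Cfi, which inactivates C3b, fell by 1.32 (limma adjusted p = 0.000158, 0.000381 and 0.000162). The C1 inhibitor Serping1 was not called (0.07). Cd55, a membrane regulator that speeds decay of those enzymes, had 4.1, 5.46, 4.06 and 5.73 FPKM and 7.07, 7.01, 6.56 and 6.84 FPKM, a small rise without overlap (log2 fold change 0.44, SE 0.09, limma adjusted p = 0.00135).

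Cell division genes had the highest share of members called lower of the 25 lists. Of 20, 18 fell, Ccnd1 rose and Ccnb1 was not called (median log2 fold change -0.69). Top2a, the topoisomerase of dividing cells, had 19.7, 23.1, 27.2 and 22 FPKM in UUO7 and 12.8, 6.97, 10.8 and 8.16 FPKM in R2W (log2 fold change -1.19, SE 0.24, limma adjusted p = 0.00116). Every R2W library was under every UUO7 library and above the sham mean of 1.31 FPKM. Mki67, the Ki-67 antigen, and Ccnb2, a mitotic cyclin, fell by 0.77 and 1.03. The replication licensing genes Mcm2 to Mcm7 fell by between 0.36 (Mcm6) and 1.01 (Mcm3), of which Mcm2 was not called without R2W replicate 2, nor Mcm7 without R2W replicate 2 or UUO7 replicate 4. Ccnd1, cyclin D1, which acts at the entry into the cycle, had 37.3, 37.3, 35.9 and 35.4 FPKM and 58.5, 49.6, 51.7 and 54.6 FPKM, with the groups apart (log2 fold change 0.54, SE 0.11, limma adjusted p = 0.00161). Without R2W replicate 2 the number called lower was 12, and with a minimum mean of 10 FPKM, which leaves out the low members, it was 7.

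Of 11 immediate early genes, transcription factors and regulators switched on within minutes of stress, 4 fell and 7 were not called, and 3 fell after rescaling. Over all genes 21.5% were called lower, and 14.0% after rescaling. Myc had 29.9, 29.5, 32.9 and 24.6 FPKM in UUO7 and 10.3, 7.06, 14.2 and 7.22 FPKM in R2W (log2 fold change -1.54, SE 0.29, limma adjusted p = 0.000762). Atf3, Klf6 and Ier3 fell by 1.08, 0.89 and 0.69, and Ier3 was not called after rescaling (limma adjusted p = 0.065). Ier3 also lost its call without R2W replicate 3 or UUO7 replicate 1 or 4, and when R4W replicate 2, which carries a 2-week label, was placed in R2W. Junb and Jun had no overlap between groups but were not called (limma adjusted p = 0.0741 and 0.0872). Myc was the only 1 called without R2W replicate 2 or 4 or without UUO7 replicate 3, and 7 were called without the day-2 obstruction libraries or with only the 8 libraries in the fit.

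Of 10 podocyte genes, which mark the filter of the glomerulus, 6 rose and 4 were not called (median log2 fold change 0.45). Nphs1, nephrin, a slit membrane protein, had 7.26, 8.15, 9.14 and 8.56 FPKM in UUO7 and 10.1, 10.2, 14.3 and 14.8 FPKM in R2W (log2 fold change 0.51, SE 0.16, limma adjusted p = 0.0169), and Podxl, podocalyxin, and Cdkn1c rose by 0.62 and 0.63. Nphs1 was not called without R2W replicate 3 or 4 or UUO7 replicate 1, Podxl not without R2W replicate 3 or 4 or UUO7 replicate 1, 2 or 3, and Cdkn1c not without UUO7 replicate 1. Synpo was not called (-0.19). The number called higher depended on single libraries and was 2 without R2W replicate 3 or 4, 1 without UUO7 replicate 1, 4 without UUO7 replicate 2, 3 without UUO7 replicate 3, and 3 with a minimum mean of 10 FPKM. Of 12 endothelial genes, Eng, an endothelial TGF-beta co-receptor, fell from 68.6, 65.3, 64.4 and 66.5 FPKM to 59.4, 39.5, 44 and 39.9 FPKM (log2 fold change -0.54, limma adjusted p = 0.0181), and 11 were not called. Eng was not called without R2W replicate 2 or 4, and 3 endothelial genes were called lower without R2W replicate 1. The endothelial median was -0.06 on the deposited values and 0.04 after rescaling, where 3 genes were called higher.

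**Figure D5:**
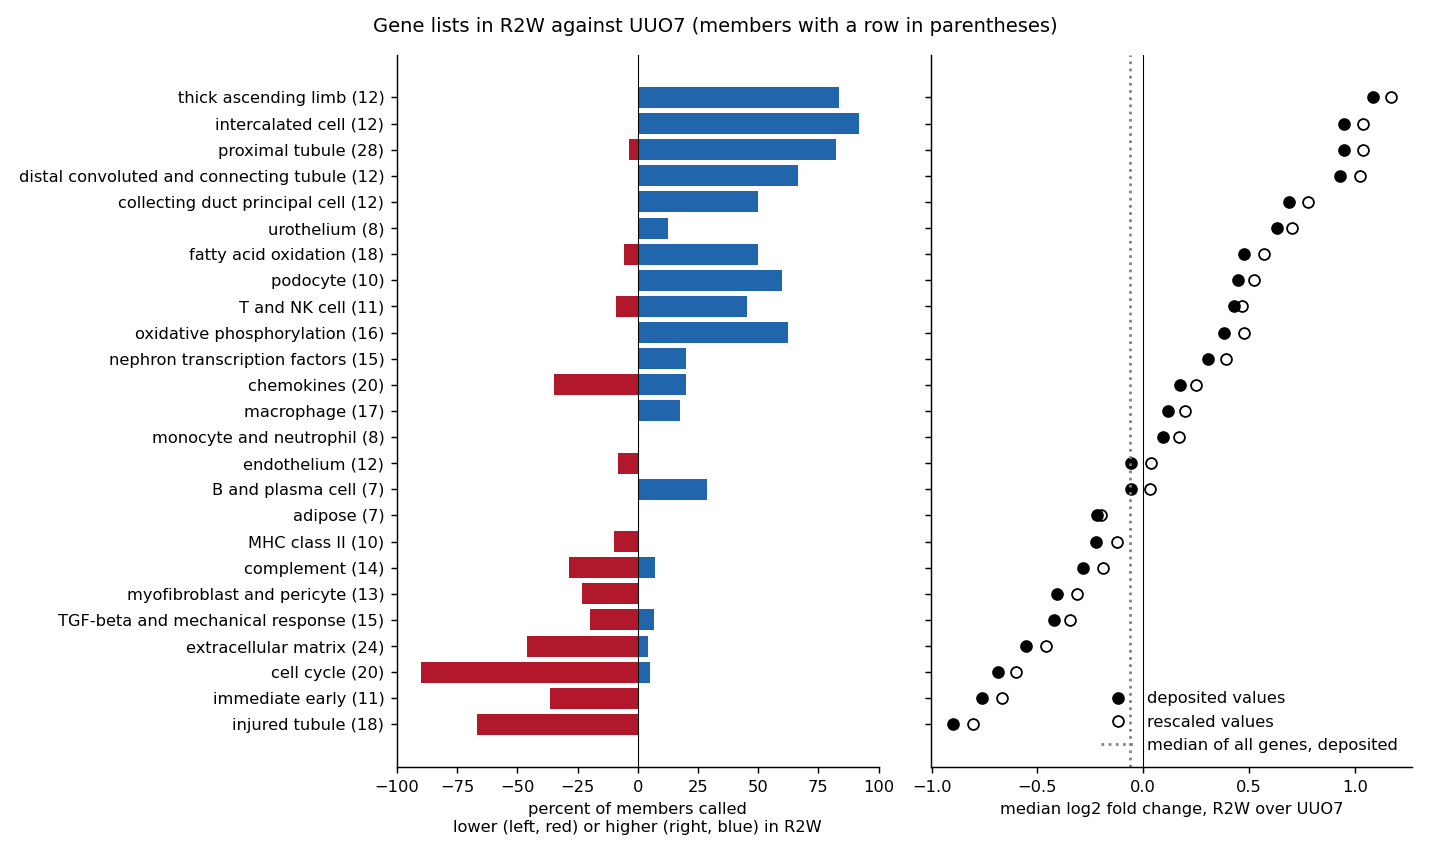
For 25 gene lists, the percent of members called lower (red, left) or higher (blue, right) in R2W than in UUO7, and the median log2 fold change on deposited (filled) and rescaled (open) values beside the dotted median of all genes. The 5 tubule segment lists lie at the top, with medians from 0.69 (principal cell) to 1.09 (thick ascending limb), injured tubule, immediate early and cell cycle lists at the bottom, and the leukocyte lists in between.

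Against sham, limma called 8295 genes higher in R2W (56.1% of those tested) and 1909 lower (12.9%). After rescaling these became 4591 (31.1%) and 4812 (32.5%), and the median log2 difference of all genes moved from 0.32 to -0.004, so values against sham are read relative to that shift. The proximal tubule list was lower than sham in 27 of 28 genes (28 after rescaling), with a median log2 difference of -1.15 (-1.53 rescaled). Fatty acid oxidation was lower in 12 of 18 genes (15 rescaled) and oxidative phosphorylation in 13 of 16 (16 rescaled). In the thick ascending limb list 2 genes were lower and 2 higher (4 and 2 rescaled), and in the intercalated cell list 1 and 1 (5 and 0 rescaled). Calb1 was not called against sham, with a log2 difference of -0.05 (limma adjusted p = 0.896), and -0.43 rescaled (limma adjusted p = 0.223).

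The genes of injury, matrix and leukocytes were nearly all above sham at 2 weeks. This held for 17 of 18 injured tubule genes, 24 of 24 matrix genes, 17 of 17 macrophage genes and 19 of 20 cell cycle genes (18 rescaled). In that order, the median log2 differences were 2.62, 2.98, 3.93 and 1.16. Col1a1 was 4.06 above sham on the log2 scale, Lcn2 5.74 and C3 4.81. Sham replicate 2 carried more adipose and urothelial RNA than the other sham libraries, with an adipose score of 4.73 against 1.66 to 1.68 and a urothelial score of 3.00 against 0.29 to 0.68. Without it, 8314 genes were called higher than sham and 1852 lower. The counts of proximal tubule, matrix, macrophage and injured tubule genes just given did not change. Oxidative phosphorylation and fatty acid oxidation were then each lower in 11 genes, and principal cell genes were higher in 6 in place of 3. With all sham libraries kept, rescaling gave 0 principal cell genes higher and 1 lower.

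Against 1 week of reversal, limma called 0 genes higher in R2W (0.0% of those tested) and 1 lower (0.00676%), with 2351 genes at an unadjusted p under 0.05. None of the genes named above was called. Egf had 174, 67.3, 87.5 and 146 FPKM in R1W, against 119, 218, 119 and 217 FPKM in R2W (limma adjusted p = 0.529), and Havcr1 had 95.7, 132, 159 and 112 FPKM in R1W against 38.9, 42.3, 109 and 59 FPKM (limma adjusted p = 0.166). Krt20 had 17.8, 18.7, 22.1 and 17.4 FPKM in R1W, each above the highest R2W library, with the lowest limma adjusted p among the named genes, 0.0777. A missed threshold does not show that the 2 times were alike.

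Genes of tissue next to the kidney were also read. Of 8 urothelial genes, Upk1a, a plaque protein, rose by 1.14 (limma adjusted p = 0.0424) and 7 were not called. Upk1a was not called when any 1 of 7 of the 8 libraries was left out, all but UUO7 replicate 4. The urothelial score was 2.39 to 3.12 in UUO7 and 4.09, 2.36, 3.29 and 3.07 in R2W, highest in R2W replicate 1, the library that also had the highest Aqp2. Of 7 adipose genes limma called 0 (0 higher and 0 lower at an unadjusted p under 0.05), and the score was 1.54 to 2.5 and 1.60, 1.69, 1.52 and 1.53. The part of such tissue in the results above was not tested.

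In the authors' deposited table, 2350 genes were higher in R2W (16.1% of 14558 with an adjusted p-value) and 2520 lower (17.3%). Of these, 3672 were called in the same direction by limma on the deposited values and 3737 on the rescaled ones. For Egf the authors' deposited table gives a log2 fold change of 3.64 and for Havcr1 -2.88, on a scale without an added constant. Some verdicts on single genes differed in either direction. Junb, Jun and Cldn4, not called by limma, had authors' adjusted p-values of 1.05e-08, 1.86e-10 and 3.69e-05. Inhba and Pdk4, called lower by limma, had authors' adjusted p-values of 0.152 and 0.17.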

How the data were processed

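Kidney RNA of 24 mice in 6 groups of 4 was sequenced after polyA selection, per the labels' protocols, and the 8 libraries of R2W and UUO7 were compared. Per the submitters' processing notes, Bowtie2, RSEM, FastQC, DESeq2 and build mm10 were used, with no role or version given. Whether counting used strand is not given in the sources used here. The authors deposited normalised values, 1 per gene and library, taken here to be FPKM, with no unit in the file headers. That unit was inferred because values multiplied by transcript length in kilobases sum to 884409 to 952784 per library. The 14785 genes deposited have a mean of at least 1.0 over the 24 libraries. The deposited log2 fold changes and adjusted p-values of the authors' own comparison, per the file headers, are used only where named.

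Values were analysed as log2(FPKM + 1) with limma 3.58.1 in R 4.3.3 (1 mean per group, all 24 libraries, empirical Bayes with a trend), and p-values were adjusted over all genes. Median-ratio rescaling was run beside it. Other work used Python 3.11.15 with pandas 2.3.3, numpy 2.4.6 and matplotlib 3.10.9. The fit was tested on simulated data. The genes, lists and rules were chosen with earlier results of these data known. Named genes were the 12 largest rises and 12 largest falls called with the same direction on both scales, with no overlap and a mean FPKM of 10 or more, leaving out mitochondrial, ribosomal protein, immunoglobulin and clone-named genes, and for each of 25 lists up to 4 called members of largest change and 2 uncalled members of highest mean. Those rules gave 139 genes, 7 of which are not reported here, and 43 more were named after their values were seen, among them Umod, Slc34a1, Lrp2, Slc13a1, Col1a1, Eln, Adgre1, Ccnd1, Cxcl9 and Cd55. Of 370 list genes, 349 had a row. A library titled as replicate 2 of 4 weeks of reversal carries a 2-week treatment label and was kept with its title. The alternatives were other pseudocounts (0.1 and 10), a minimum mean of 10 FPKM, other sets of libraries, leaving out each library, a replicate block and a minimum fold change. The design states that the animals differ, but not how the 4 sequenced of 10 were chosen.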

Additional observations from a re-analysis of the deposited data

Results flagged for a closer look

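In groups of 4, a highest or lowest library was marked where its gap to the nearest other library took more of the group's range than Dixon's critical value for 4 samples allows. Of 400 such checks on the named genes and list scores 22 were marked, and chance alone marks about 1 in 20, or 20.0. In R2W replicate 1, Aqp2 (347.96 FPKM) and Adgre1 (49.52 FPKM) were above the other R2W libraries, and Cldn16 (14.44 FPKM) and Umod (1488.5 FPKM) below them. In R2W replicate 2, Pvalb (16.6 FPKM) and Iglc1 (25.61 FPKM) were the high values, and Cd3g (4.89 FPKM) and Nkg7 (5.38 FPKM) the low ones. R2W replicate 3 had the highest Cxcl1 (24.09 FPKM), Spp1 (6757.88 FPKM), Serpina10 (42.06 FPKM) and Rps12l1 (0.77 FPKM), the other R2W libraries of Rps12l1 being listed at 0. Slc8a1 was set apart in R2W replicate 4 (10.06 FPKM).

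Among the obstructed kidneys, UUO7 replicate 1 stood apart for Ccl6 (28.56 FPKM), Pvalb (0.04 FPKM, against 0 in the others) and the cell cycle score (3.75). UUO7 replicate 2 was marked for Inhba (3.59 FPKM) and Cd3e (1.9 FPKM), replicate 3 for Mcam (19.03 FPKM) and the adipose score (2.5), and replicate 4 for Gdf15 (34.59 FPKM) and Krt19 (118.98 FPKM). Immunoglobulin and ribosomal protein genes have near-identical copies, so Iglc1 and Rps12l1 are uncertain.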

How the results depend on the processing

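The comparison gave 4780 called genes, 1595 higher and 3185 lower in R2W. Median-ratio rescaling lowered the number called lower to 2064, and rescaling with only the 8 libraries, an alternative chosen after seeing the data, to 2117; the cause was not tested. A minimum log2 fold change of 1 left 395 genes, 241 higher and 154 lower, and with rescaling 415 genes, 298 higher and 117 lower, by construction fewer. Leaving out each library in turn gave 3210 to 5080 genes called, 1085 to 1534 higher and 2120 to 3546 lower. The 2120 came without R2W replicate 4, beside 2207 without R2W replicate 2 and 2260 without UUO7 replicate 3. With the replicate block, limma gave 4567 calls, 1545 higher and 3022 lower. The numbers do not pair animals: deviations of same-numbered libraries had correlations of -0.083 to -0.053 across genes. Counts under the other pseudocounts, the minimum mean, other library sets and with the library of conflicting label moved to R2W stayed within 1.5 times of those reported. Of the 175 named genes, rescaling ended 2 calls (Ier3 and Krt8) and added 4, the block ended 5, and leaving out 1 library ended 7 to 17. A pseudocount of 0.1 ended 4 calls and added 0, and a pseudocount of 10 ended 3 and added 5. Fitting only the 8 libraries ended 3 and added 9. None of the named genes that were called changed direction under the alternatives run. The alternatives for the comparison with sham, rescaling and leaving out Sham replicate 2, were also chosen after seeing the data. With 4 animals per group, a gene that was not called is not shown to be unchanged.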
